A study of Mus musculus with 4 samples.

Results

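Igf2 and Igfbp5 are 2 genes of the insulin-like growth factor (IGF) system, and they were examined in sorted meningeal lymphatic endothelial cells. They were chosen by name and by their high level, 2 of the 9114 genes of the deposited table. Their abundance is therefore described below without a test.

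The cells came from male C57BL/6J mice aged 20 to 24 months. All mice had received 5 uL of a serotype 1 adeno-associated virus into the cisterna magna 4 weeks earlier. In the eGFP group the virus carried the green fluorescent protein eGFP under the CMV promoter (AAV1-CMV-eGFP), and in the mVEGF-C group it carried the mouse form of VEGF-C, which drives the growth of lymphatic vessels, under the same promoter (AAV1-CMV-mVEGF-C). Single living cells that lacked CD45 and bore CD31 and podoplanin were sorted, and each library was made from the pooled meninges of 10 mice, with 2 libraries per group. CMV is a general promoter and is not limited to lymphatic cells. The labels do not say how many cells a library held, nor whether the 2 pools of a group were treated on the same day.

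IGF2 is a secreted growth factor that acts through the receptor IGF1R and one form of the insulin receptor, while the receptor IGF2R carries it into lysosomes for breakdown. The IGF binding proteins hold IGFs outside cells and set how much of them reaches the receptors; IGFBP5 also binds to extracellular matrix. Igf2 is imprinted, with the paternal copy active in most tissues and both copies active in choroid plexus and leptomeninges, and in the adult brain its known sources are the choroid plexus, the meninges and vessels. In bulk libraries such as these, fewer cells of a type and less RNA per cell cannot be told apart.

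Igf2 lies on the minus strand of chromosome 7 (142650766 to 142666816, GRCm38), with 9 annotated transcripts. RefSeq gives it 4 transcript starts and gives Igfbp5 (minus strand of chromosome 1, 72857932 to 72874884, 2 annotated transcripts) 1 start. The deposited values are 1 per gene, so they sum over these starts and cannot tell which of them was used. The DNA next to the starts is shown here to make that difference visible. Each sequence is the 100 bases upstream of a start or of the annotated exon at it, from RefSeq on GRCm38.p6. It is given on the gene's own strand and in the direction of transcription, and capitals mark the GC box GGGCGG.
Igf2, chr7:142657497-142657596, minus strand: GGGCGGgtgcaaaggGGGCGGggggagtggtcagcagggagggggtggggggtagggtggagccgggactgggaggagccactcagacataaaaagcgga
Igf2, chr7:142666817-142666916, minus strand: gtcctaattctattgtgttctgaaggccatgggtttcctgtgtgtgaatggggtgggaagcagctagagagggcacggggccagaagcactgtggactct
Igfbp5, chr1:72874885-72874984, minus strand: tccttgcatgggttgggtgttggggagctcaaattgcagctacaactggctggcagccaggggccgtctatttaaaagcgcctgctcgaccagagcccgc

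Besides the GC box, the TATA box spelled TATAAA and the CAAT box spelled CCAAT were searched, each on both strands, and none of the 3 overlaps another. Of all 32851 promoter windows of the same length, 24.68% held the GC box, 5.561% held the TATA box and 18.89% held the CAAT box. The Igf2 window nearest the coding exons held the GC box and neither of the other motifs, and the distal Igf2 window and the Igfbp5 window held none of the 3. The remaining 2 Igf2 starts are not shown. Of the genes that overlap Igf2, the microRNA gene Mir483, the protein-coding gene Gm49394 (same strand) and the antisense gene Igf2os (opposite strand) had no row in the table. Whether the counting used strand is not given in the sources used here, so reads of these genes cannot be separated from those of Igf2. No other annotated gene overlaps Igfbp5.

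Both genes were abundant, and Igfbp5 was among the most abundant of all. Igfbp5 ranked 8 of 9114 genes by mean normalised count (113674), and Igf2 ranked 220 (12727). Within single libraries the rank of Igfbp5 lay between 5 and 30 and that of Igf2 between 137 and 426. Igf2 and Igfbp5 each had their poorest rank in eGFP 2.

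Igfbp5 took 0.568% of the reads in eGFP 1 (95% Wilson interval 0.566 to 0.571), 0.189% in eGFP 2 (0.187 to 0.191), 0.464% in mVEGF-C 1 (0.462 to 0.467) and 0.487% in mVEGF-C 2 (0.485 to 0.490). Igf2 took 0.0614% in eGFP 1 (0.0605 to 0.0624), 0.0346% in eGFP 2 (0.0339 to 0.0353), 0.0493% in mVEGF-C 1 (0.0485 to 0.0502) and 0.0457% in mVEGF-C 2 (0.0449 to 0.0464). These shares are of the reads of the 9114 genes with a row and not of all reads of a library. The intervals cover counting error only, since reads without molecular identifiers are not independent molecules. They are far narrower than the differences between libraries of 1 group.

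Per kilobase of annotated exon, Igfbp5 ranked 15 and Igf2 ranked 254 of the 9008 genes with a length. The mean level per kilobase was 18927 normalised counts for Igfbp5 and 2224 for Igf2, 8.51 times lower. Within the libraries, the level per kilobase of Igfbp5 was 8.82 times that of Igf2 in eGFP 1, 5.20 times in eGFP 2, 8.97 times in mVEGF-C 1 and 10.2 times in mVEGF-C 2. The order was thus the same in all 4 libraries, and the distance was smallest in eGFP 2. A level per kilobase assumes that reads spread along the whole transcript, which linear amplification may not give and which was not tested.

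Above Igfbp5 in this order stood Ifitm3 at 21268 per kilobase and Lyve1, the hyaluronan receptor of lymphatic vessels, at 20981. Between Lyve1 and Igfbp5 came Mmrn1, a secreted glycoprotein and lymphatic marker, at 19900. Below Igfbp5 followed Serinc3 at 15230, S100a11 at 14370 and Eef1a1 at 13907. The ranges over the 4 libraries of the 3 genes above and the 3 below Igfbp5 all overlapped that of Igfbp5 (8618 to 23409), so this order is not fixed beyond the spread. The same held for the 6 neighbours of Igf2, which itself lay between 1656 and 2654 per kilobase. Above Igf2 stood Gm16344, Atp5b and Ube2v1. Below it stood the thrombin receptor F2r at 2224, Gm26236, and Podxl, a sialomucin of endothelial cells, at 2218.

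**Figure D1:**
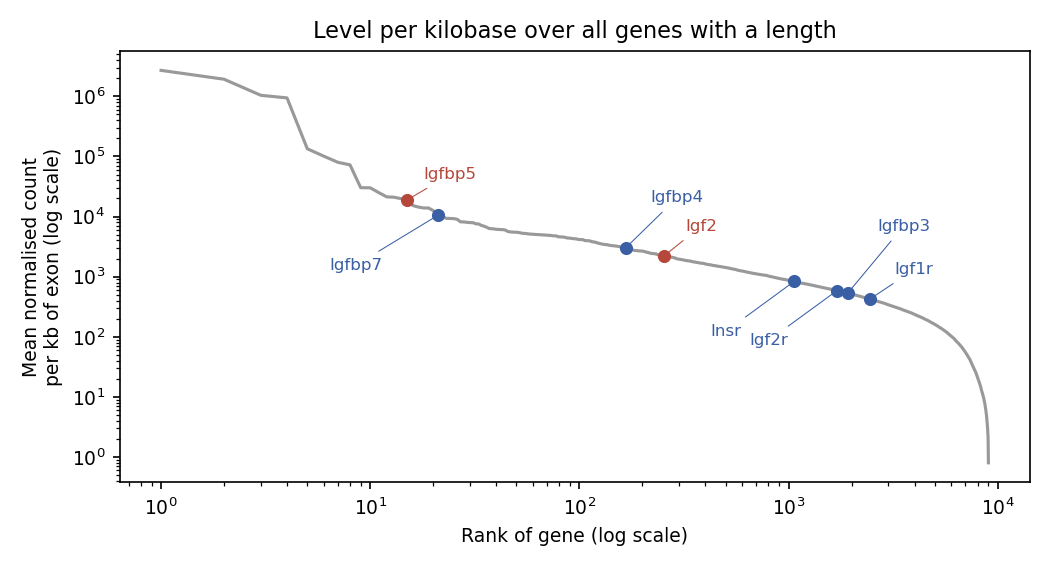
Mean normalised count per kilobase of exon (vertical, log scale) against rank (horizontal, log scale) for the 9008 genes with a length, as a grey line. Igf2 and Igfbp5 are in red and 6 other IGF system genes in blue; Igfbp5 stands at rank 15 with Igfbp7 at 21, and Igf2 at 254 lies above all 3 receptors shown.

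The levels of Igfbp5 in the 4 libraries were 140594 normalised counts in eGFP 1, 51757 in eGFP 2, 132701 in mVEGF-C 1 and 129644 in mVEGF-C 2. The highest and the lowest value both belonged to the eGFP group, so the groups overlapped. The 2 eGFP libraries differed 2.72-fold and the 2 mVEGF-C libraries 1.02-fold. On the log2 scale the eGFP difference of 1.44 was larger than that of 69.3% of the genes tested, and the mVEGF-C difference of 0.03 was larger than that of 1.77%. Of the 4 libraries, then, 3 agreed closely and eGFP 2 stood low.

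For Igf2 the values were 15190 normalised counts in eGFP 1, 9477 in eGFP 2, 14095 in mVEGF-C 1 and 12146 in mVEGF-C 2. Here too eGFP 1 was highest and eGFP 2 lowest, with both mVEGF-C libraries between them. The eGFP libraries differed 1.60-fold and the mVEGF-C libraries 1.16-fold, differences larger than those of 37.9% and 11.7% of the genes tested.

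**Figure D2:**
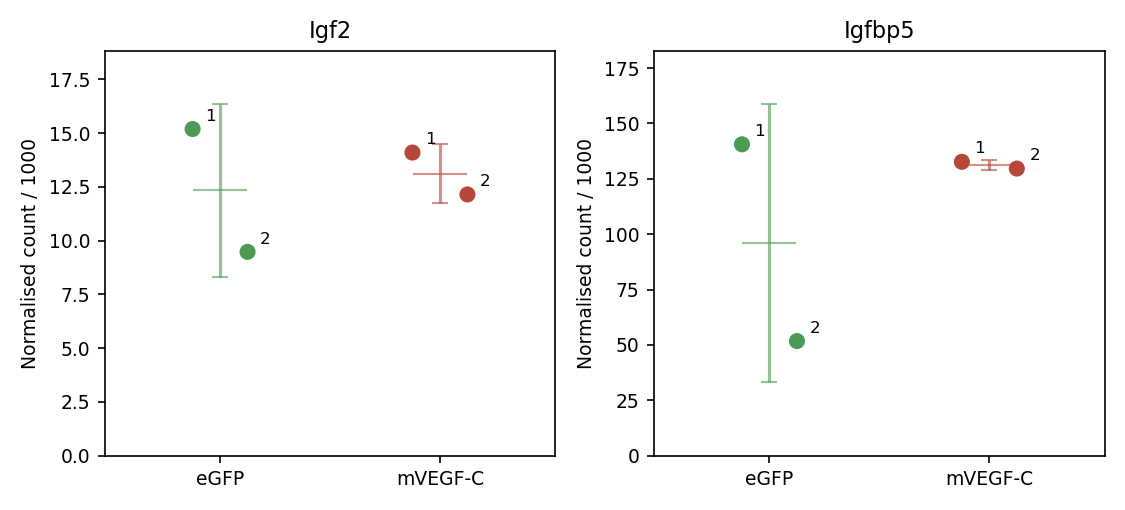
Normalised count divided by 1000 (vertical, from 0) of Igf2 (left) and Igfbp5 (right) in each library, with dots numbered by replicate and a line and bar for the mean and SD of 2 libraries. For both genes eGFP 1 is the highest and eGFP 2 the lowest library, and the mVEGF-C libraries lie between them.

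The comparison of the study was mVEGF-C against eGFP. Igfbp5 averaged 131172 ± 2162 normalised counts with mVEGF-C and 96176 ± 62817 with eGFP (SD, n = 2 libraries each). The log2 difference was 0.62, or 1.54-fold, with an SE of 0.17 and a 95% interval of 0.29 to 0.95. This passed the test across all genes (limma, adjusted p = 0.0151). The same test called 2.14% of the 9063 genes, 0.828% higher and 1.31% lower.

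The call of Igfbp5 does not rest on agreement between its replicates. The variance that limma used was that of genes of similar level and not that of Igfbp5 itself. From the gene's own spread the SE was 0.72, which is 4.33 times the one used, and 49 of the 50 most abundant genes had a smaller ratio of these SEs. Of the 194 genes called, Igfbp5 and the secreted glycoprotein gene Fstl1 were the only 2 whose groups overlapped. An exact two-sided permutation test over the 4 libraries gave p = 1 for Igfbp5, where the smallest possible p is 0.333. Without eGFP 2 the log2 difference turned to -0.10 (limma, adjusted p = 0.9995), and without eGFP 1 it rose to 1.34 (limma, adjusted p = 7.02e-11). The call was also lost without mVEGF-C 1 (0.60, adjusted p = 0.256 in limma) and without mVEGF-C 2 (0.64, adjusted p = 0.169 in limma), by edgeR on the recovered reads (adjusted p = 0.326), and by limma without the variance trend (adjusted p = 0.908).

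Igf2 averaged 13120 ± 1378 normalised counts with mVEGF-C and 12334 ± 4040 with eGFP (SD, n = 2 libraries each). The log2 difference was 0.12 with an SE of 0.50 and was not called (limma, adjusted p = 0.972). Its 95% interval ran from -0.85 to 1.10, so a lack of change was not shown. The sign turned without eGFP 2, at -0.22. The exact permutation test over the libraries gave p = 1.

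The ratio of the 2 genes within a library does not depend on how libraries are scaled. The log2 ratio of Igf2 to Igfbp5 was -3.21 in eGFP 1, -2.45 in eGFP 2, -3.23 in mVEGF-C 1 and -3.42 in mVEGF-C 2. Both mVEGF-C libraries lay below both eGFP libraries, though mVEGF-C 1 and eGFP 1 differed by little. The difference between the groups was -0.50 (exact two-sided permutation test, p = 0.333, the smallest possible), and it was -0.12 without eGFP 2.

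The libraries carried lymphatic markers throughout. All 16 lymphatic markers listed had rows and none was at 0 in any library, with summed levels of 557097 and 647504 in the eGFP and 592186 and 730057 in the mVEGF-C libraries. The reads recovered over the 9114 genes with a row lay between 25610683 and 28632461 per library. The full depth of the libraries is not known from them. Fibroblasts of the meninges are a known source of Igf2, and fibroblast markers were abundant in these libraries. Of 20 fibroblast markers 16 had a row, none at 0 in any library, led by the proteoglycan genes Bgn and Dcn and the collagen gene Col1a2. Their summed level was 171156 in eGFP 1, 82573 in eGFP 2, 187757 in mVEGF-C 1 and 139451 in mVEGF-C 2. Markers of the arachnoid, a layer of the meninges, were lower. Of 16 such markers 7 had a row, with sums of 6713 in eGFP 1, 6726 in eGFP 2, 8236 in mVEGF-C 1 and 10009 in mVEGF-C 2.

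The fibroblast sum was thus lowest in eGFP 2, the library in which Igf2 and Igfbp5 were lowest, while the arachnoid sum was nearly equal in both eGFP libraries. Of the 16 fibroblast markers, 11 had their lowest value in eGFP 2, against 29.0% of the 4137 genes whose mean reached 1000. Between the groups, 12 of the 16 had log2 differences above 0, the direction of Igfbp5, with a median of 0.76. Over all genes the share was 49.5% and the median -0.02. This direction leaned on eGFP 2, since the fibroblast sum of eGFP 1 (171156) lay between those of mVEGF-C 1 (187757) and mVEGF-C 2 (139451). Of the members above 0, Ogn, Fbln1, Mfap4 and Fmod were higher in both mVEGF-C libraries than in eGFP 1. Bgn and Serping1 were lower in both than in eGFP 1. An unadjusted p under 0.05 in limma was reached by 5 of the 16, against 11.8% of all genes. Among these 5 was Islr, which was lower with mVEGF-C. Fmod, a collagen-binding proteoglycan gene, was the 1 member called, against 0.828% of all genes called higher. Its level was 5228 normalised counts in eGFP 1, 965 in eGFP 2, 15213 in mVEGF-C 1 and 13846 in mVEGF-C 2. The log2 difference of Fmod was 2.69 (limma, adjusted p = 0.00729), with an SE of 0.68 in limma and of 1.22 from its own spread. The collagen gene Col1a1 stood at 17450 in eGFP 1, 3011 in eGFP 2, 18981 in mVEGF-C 1 and 11349 in mVEGF-C 2. The complement inhibitor gene Serping1 stood at 10682, 2086, 10175 and 10664 in the same order. Islr and Pdgfra went the other way between the eGFP libraries, each higher in eGFP 2 than in eGFP 1. Islr stood at 5155, 17212, 1960 and 1712 in the same order, a log2 difference of -2.36 (limma, adjusted p = 0.0658). Log2 differences below 0 were also found for Col6a1 (-1.26), Mgp (-0.40) and Col1a2 (-0.09), and for no other member. Relative to the fibroblast sum the log2 level of Igfbp5 was -0.28 in eGFP 1, -0.67 in eGFP 2, -0.50 in mVEGF-C 1 and -0.11 in mVEGF-C 2. On that ratio the groups differed by 0.18 (exact permutation test, p = 0.667), and relative to the lymphatic sum they differed by 0.49 (p = 1, exact permutation test). The part of fibroblast RNA in the level of Igfbp5 was not tested.

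Against the fibroblast sum, Igf2 had log2 ratios of -3.49 in eGFP 1, -3.12 in eGFP 2, -3.74 in mVEGF-C 1 and -3.52 in mVEGF-C 2. Here eGFP 2 was the highest library and not the lowest. Choroid plexus markers, the other known source of Igf2, were highest in eGFP 2. Of 12 such markers 5 had a row, with a sum of 56282 in eGFP 2 and of 21431 to 21504 in the other 3 libraries. Ttr, the thyroid hormone carrier and main transcript of choroid plexus, stood at 3947 in eGFP 1, 19584 in eGFP 2, 512 in mVEGF-C 1 and 824 in mVEGF-C 2. It was called lower with mVEGF-C, at a log2 difference of -3.76 (limma, adjusted p = 0.00306). Its SE was 0.887 in limma and 1.205 from its own spread. Of the 5 markers 4 were tested, Ttr was the 1 called, against 1.31% of all genes called lower, and none had a log2 difference above 0. None of these 5 markers was at 0 in any library. All 5 had their highest value in eGFP 2, and without Aqp1, the most abundant of them, the sum was 24521 there and 2229 to 5639 elsewhere. Blood endothelial markers (10 of 14 with a row) summed to 58874 in eGFP 2 and to 27554 to 37450 in the other libraries. Of the 10, 5 had their highest value in eGFP 2, Flt1 (VEGFR1) among them, but the sum was highest there only with Flt1. Without Flt1 the sums were 22276 in eGFP 1, 28817 in eGFP 2, 28004 in mVEGF-C 1 and 31942 in mVEGF-C 2, so eGFP 2 was no longer highest. Mural cell markers (6 of 14 with a row) summed to 35059 and 36701 in the eGFP and 25322 and 28782 in the mVEGF-C libraries, an order that held without Mylk, the most abundant of them. Leukocyte markers (6 of 16 with a row) summed to 35713 to 43030, of which most was Mrc1, and without it they showed no order by group (10151 and 14601 in the eGFP, 9903 and 12414 in the mVEGF-C libraries). The T cell marker Cd3e was at 0 in mVEGF-C 1, and Ptprc (CD45) had no row. Genes had been kept by how well replicates agreed, so a gene without a row need not have been absent. The part of these cells in the levels of Igf2 and Igfbp5 was not tested.

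**Figure D3:**
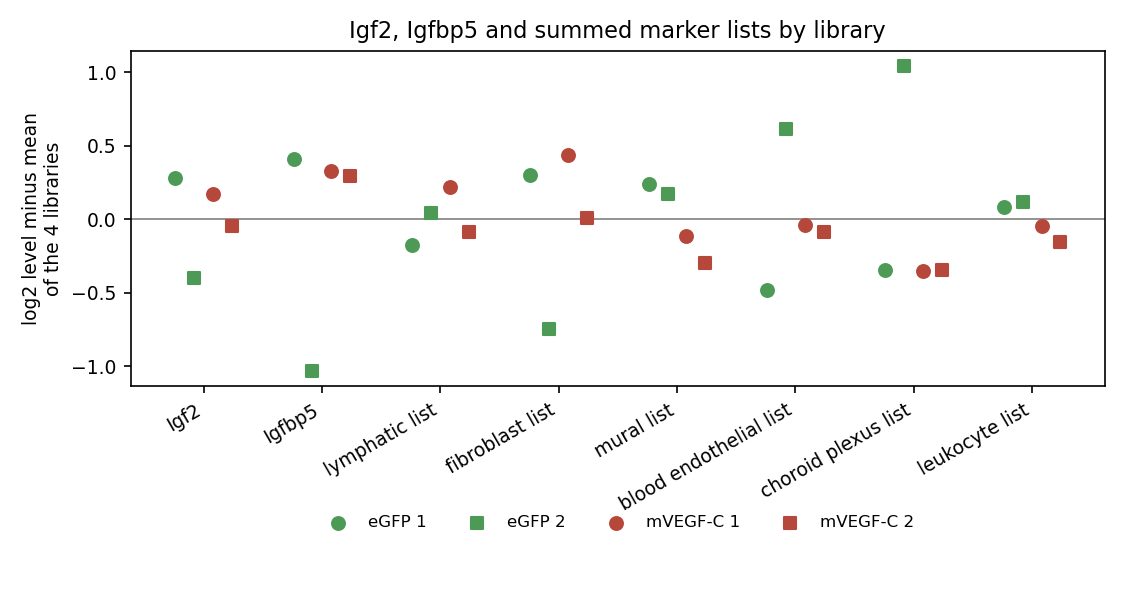
Log2 level minus its mean over the 4 libraries (vertical) for Igf2, Igfbp5 and the summed levels of 6 marker lists, with 1 point per library, green for eGFP and red for mVEGF-C. Library eGFP 2 (green squares) is lowest for Igf2, Igfbp5 and the fibroblast list and highest for the choroid plexus list. Its blood endothelial sum is the highest only with Flt1 included.

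The other genes of the IGF system were then read from a fixed list of 41 genes, of which 24 had a row. Of these 24, Igfbp5 was called higher and none was called lower (limma, 4 genes at an unadjusted p under 0.05, against 11.8% of all genes). Fold changes above 0 were seen for 16 of the 24, with a median of 0.40, against 49.5% and a median of -0.02 over all genes. Groups without overlap were found for 10 of the 24, and for 39.2% of the table. Each of edgeR and DESeq2 also called 1 of the 24, Igf2r in the first case and Irs1 in the second. Over all 9063 genes, edgeR called 67 higher and 79 lower, and DESeq2 called 289 higher and 329 lower. Whether 1 call of 24 departs from these shares was not tested.

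Igf2 was the only ligand gene with a row; Igf1, Ins1 and Ins2 were not analysed here. Of the binding protein genes, Igfbp3, Igfbp4, Igfbp5 and Igfbp7 had rows. By mean level per kilobase their order was Igfbp5 at 18927, Igfbp7 at 10445, Igfbp4 at 2999 and Igfbp3 at 533. Igfbp7, which encodes a matrix protein that binds IGFs weakly, had levels per kilobase of 7703 in eGFP 1, 10860 in eGFP 2, 11558 in mVEGF-C 1 and 11658 in mVEGF-C 2. In eGFP 2 it therefore stood above Igfbp5 (8618), so the order of these 2 genes did not hold in every library.

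Igfbp4, a soluble binding protein, averaged 14545 ± 2639 normalised counts with mVEGF-C and 11942 ± 3492 with eGFP (SD, n = 2 libraries each), a log2 difference of 0.30 (limma, adjusted p = 0.907). Without eGFP 1 it was 0.0013 and without eGFP 2 it was 0.61. Igfbp7 differed by 0.34 (limma, adjusted p = 0.896), with 0.096 and 0.59 without these libraries. Igfbp3, the main carrier of IGFs in blood, had 1603 normalised counts in eGFP 1, 2823 in eGFP 2, 559 in mVEGF-C 1 and 1691 in mVEGF-C 2, a log2 difference of -1.13 (limma, adjusted p = 0.768), with -0.33 without mVEGF-C 1 and -1.93 without mVEGF-C 2. All 3 were higher in eGFP 2 than in eGFP 1, unlike Igfbp5.

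Among the receptors, Igf2r stood out by size. It had 2257 normalised counts in eGFP 1, 978 in eGFP 2, 13322 in mVEGF-C 1 and 5272 in mVEGF-C 2. The mVEGF-C values were the 2 highest, and within each group the libraries differed more than for Igf2. The log2 difference was 2.50 with an SE of 0.79, which did not pass the threshold (limma, adjusted p = 0.0644). It was called by edgeR (2.54, adjusted p = 0.0395) and, in limma, without mVEGF-C 2 (adjusted p = 0.0459), and over the other settings the adjusted p ranged from 0.0513 to 0.907. Without mVEGF-C 1 the log2 difference was 1.83.

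None of the signalling receptors was called by limma. Igf1r had 5200 normalised counts in eGFP 1, 11901 in eGFP 2, 4847 in mVEGF-C 1 and 6435 in mVEGF-C 2, a log2 difference of -0.49 (limma, adjusted p = 0.878) that turned to 0.10 without eGFP 2. The insulin receptor gene Insr stood at 8077, 16516, 6540 and 14672 in that order, a log2 difference of -0.24 (limma, adjusted p = 0.941) that turned to 0.28 without eGFP 2 and 0.35 without mVEGF-C 1. Insrr, the insulin receptor-related receptor, differed by 1.53 (limma, adjusted p = 0.628), with 0.18 without eGFP 1 and 2.88 without eGFP 2. Per kilobase, Insr averaged 833, Igf2r 586 and Igf1r 423, all below Igf2.

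Of the genes that act on binding proteins or process IGF precursors, 5 of 10 had a row and none was called by limma. Pappa, a protease that cleaves IGFBP4 and IGFBP5, had 4115 and 5599 normalised counts in the mVEGF-C and 3868 and 4561 in the eGFP libraries. The log2 difference was 0.19 (limma, adjusted p = 0.972), and it was -0.03 without mVEGF-C 2. The metalloprotease gene Adam12 averaged 8829 and differed by -0.15 (limma, adjusted p = 0.972), at 0.05 without eGFP 2 and 0.01 without mVEGF-C 2. The convertase gene Pcsk6 differed by 0.76 (limma, adjusted p = 0.709), with groups that did not overlap.

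Of 11 adaptor and signalling genes downstream of the receptors, 7 had a row and none was called by limma. Irs1, the docking protein of the IGF1 and insulin receptors, had 409 normalised counts in eGFP 1, 369 in eGFP 2, 1752 in mVEGF-C 1 and 2215 in mVEGF-C 2. The groups were well apart and the libraries of each group close together. Its log2 difference of 2.34 had an SE of 1.09 in limma and an SE of 0.18 from its own spread. It was not called by limma (adjusted p = 0.339) or edgeR (0.379) and was called by DESeq2 (adjusted p = 0.0409). Without each library in turn the log2 difference stayed between 2.17 and 2.51. Grb10, an imprinted gene whose adaptor protein inhibits these receptors, differed by -1.05 (limma, adjusted p = 0.644). The log2 differences of the other 5 were 0.81 for Gab1, 0.45 for Shc1, -0.10 for Pik3r1, -0.70 for Pik3ca and -1.32 for Ptpn11 (limma, adjusted p of 0.695 to 0.992). With each library left out in turn, Ptpn11 ran from -2.52 (without mVEGF-C 2) to -0.13 (without mVEGF-C 1) and Pik3ca from -1.06 (without mVEGF-C 1) to -0.35 (without mVEGF-C 2). Those of Shc1 and Pik3r1 changed sign without mVEGF-C 1, to -0.51 and 0.67, and that of Pik3r1 also with edgeR and DESeq2 (0.12 and 0.10).

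The 3 genes of the IGF2 mRNA-binding proteins were low. Igf2bp2 had 67.2 normalised counts in eGFP 1, 18.2 in eGFP 2, 241 in mVEGF-C 1 and 279 in mVEGF-C 2, a log2 difference of 2.85 (limma, adjusted p = 0.317). Igf2bp1 averaged 139 and Igf2bp3 645, and neither was called.

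**Figure D4:**
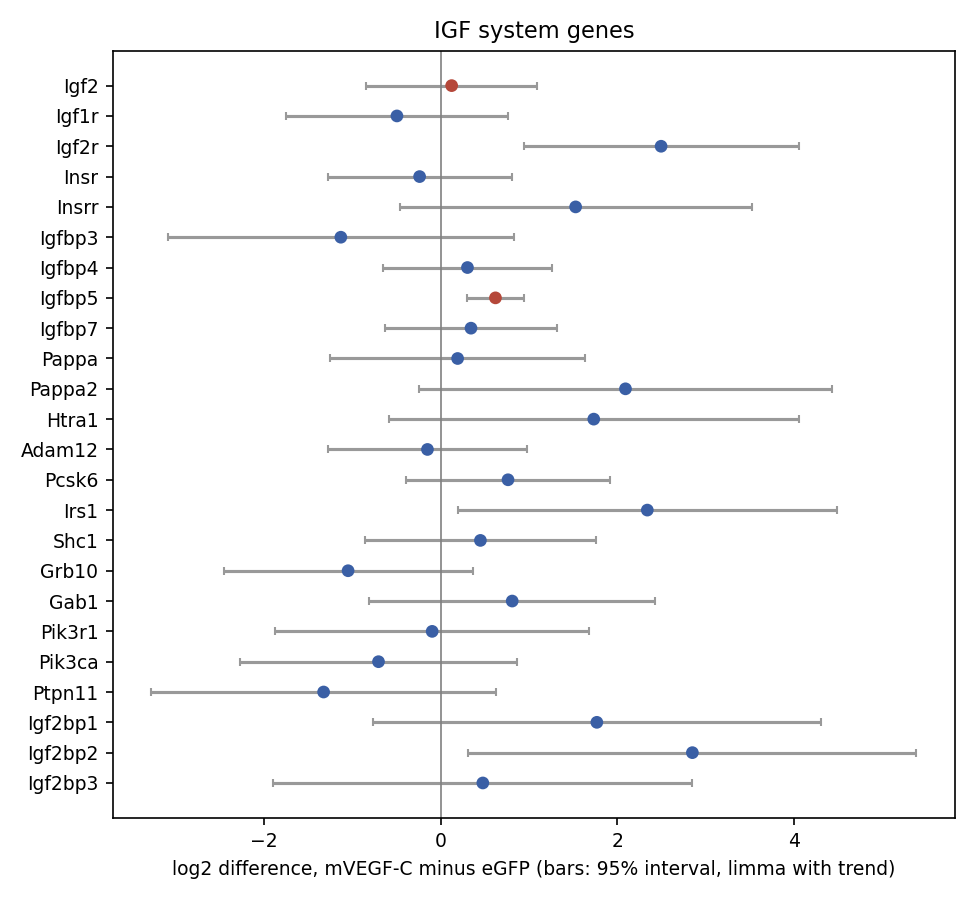
Log2 difference, mVEGF-C minus eGFP (horizontal), with its 95% interval from limma, for the 24 IGF system genes with a row, and Igf2 and Igfbp5 in red. All intervals come from the variance of genes of similar level, and that of Igfbp5 (0.29 to 0.95), the most abundant of the 24, is the narrowest. The largest differences are those of Igf2bp2 (2.85), Igf2r (2.50) and Irs1 (2.34).

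The genes most alike in pattern were found among those averaging 1000 or more, by the Euclidean distance between log2 profiles over the 4 libraries centred on their means. Nearest to Igf2 were Epas1, the hypoxia-inducible factor of endothelium (distance 0.07), Zfp729a (0.09), Nrp1, a co-receptor for VEGF and semaphorins (0.10), Anxa6 (0.12) and Rpl3 (0.14). Epas1 stood at 18516 in eGFP 1, 12284 in eGFP 2, 17263 in mVEGF-C 1 and 15272 in mVEGF-C 2. Nearest to Igfbp5 were Manea (0.09), Cd2ap (0.09), Fmnl2 (0.17), Nono (0.17) and Nrip1 (0.18). None of these 10 genes is on the fibroblast list. Igf2 itself was place 319 in likeness to Igfbp5, at a distance of 0.74, and Igfbp5 was place 608 in likeness to Igf2. These places are among the 4137 genes whose mean reached 1000. The 2 genes thus shared the order of the eGFP libraries more than their size of change. With 4 libraries a profile holds few values, so these likenesses are given as a description and were not tested.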

How the data were processed

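RNA from 4 libraries (2 per group) was sequenced after linear amplification, per the labels' protocols. The authors deposited 1 table of 9114 genes as a signal: read counts divided by a size factor per library. The submitters' processing notes name FastQC, Trimmomatic, Salmon and DESeq2, without versions, and the build mm10. Every value was a whole multiple of the smallest above 0 (100% within 0.001), so whole reads were recovered, 25610683 to 28632461 per library. The 2 libraries of a group never differed by more than 2.83 (eGFP) or 4.24 (mVEGF-C) in log2(reads + 1), so genes had been kept by how well replicates agreed, the spread is understated and p-values are too small.

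Symbols were given to 1098 of 1146 rows named by Ensembl identifier; positions and merged exon lengths (9008 genes) come from GENCODE vM21 on GRCm38, which is mm10. Groups were compared with limma 3.58.1 in R 4.3.3 (eBayes with trend, two-sided) on log2(normalised count + 1) for 9063 genes with a mean of at least 10, with Benjamini-Hochberg adjustment and a threshold of 0.05. The fit had 2 residual degrees of freedom and infinite prior degrees of freedom, so a gene's own spread did not enter its p-value. edgeR 4.0.16 and DESeq2 1.42.0 were run on the recovered reads. The fit was run on simulated data with changes far larger than that of Igfbp5, the same spread set for all genes and no filter on replicate agreement. That run therefore says nothing about the call of Igfbp5. Nothing in the labels says that the pools of a group were independent beyond their mice, so p-values speak only of these libraries. Those of limma measure the spread of genes of similar level between the libraries, and not that of the gene itself. Members, lists and tests were chosen with earlier results of these data known. Genes were named by rule: IGF system genes with a mean of at least 1000 or a call, abundant markers and neighbours, genes next in rank, and the 5 most alike in pattern. Igf2bp2, Fstl1, Col1a1, Col6a1, Mgp, Serping1, Islr, Pdgfra, Fmod, Ttr and Xrcc5, and the marker sums without their most abundant member, were chosen after their values were seen. Values per kilobase and shares of reads were computed with Python 3.11.15.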

Additional observations from a re-analysis of the deposited data

How the results depend on the processing

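Igf2 was not called under any of the 16 alternatives, and its log2 difference turned to -0.00542 with quantile normalization; leaving out each library in turn gave -0.22 to 0.47. Igfbp5 kept its direction under all but 1 alternative, and the 1 was the fit without eGFP 2; leaving out each library gave -0.10 to 1.34. Its call held with pseudocounts of 5 and 0.5, no filter, a filter at 100 and quantile normalization, and without eGFP 1. It was lost without eGFP 2, without mVEGF-C 1 and without mVEGF-C 2 (adjusted p = 0.9995, 0.256 and 0.169 in limma). It was also lost, at 0.62, without trend, with robust eBayes (adjusted p = 0.162 in limma) and with the replicate block (adjusted p = 0.0733 in limma); at 0.54 with libraries rescaled to the same total and 0.55 to the same upper quartile; and at 0.47 with edgeR and 0.45 with DESeq2. Rescaling to the total moved the median of all genes by -0.08.

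Replicate numbers did not pair the libraries: across genes, deviations of same-numbered libraries from their group means had a correlation of 0.00013. The replicate block gave 74 higher and 129 lower genes.

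Genes higher in mVEGF-C numbered 75, against 45 with a filter at 100, 15 without trend and 289 with DESeq2, and 5 to 104 with a library left out. Genes lower numbered 119, against 75, 26 and 329 under the same settings, 79 with edgeR, and 0 to 188 with a library left out. The log2 ratio of Igf2 to Igfbp5 differed by -0.88 to -0.12 with a library left out. The poorest rank in a single library was 426 for Igf2 and 30 for Igfbp5.

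Of the other IGF genes, the difference of Pik3r1 (-0.10) was 0.12 with edgeR and 0.10 with DESeq2, and with a library left out it ran from -0.86 to 0.67. With a library left out the ranges of the other genes that changed sign were -0.35 to 0.0549 for Adam12, -1.09 to 0.10 for Igf1r, -1.59 to 2.54 for Igf2bp3, -0.82 to 0.35 for Insr, -0.0297 to 0.41 for Pappa and -0.51 to 1.41 for Shc1. The causes were not tested. Igf2 had 8866 to 16964 reads per library and Igfbp5 48419 to 157011. How many input molecules stand behind these reads after amplification is not known.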

Other observations

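In the limma comparison of all 4 libraries, no listed gene near Igf2 or Igfbp5 in the genome and no listed imprinted gene was called; edgeR called the imprinted gene Igf2r (adjusted p = 0.0395), as did limma without mVEGF-C 2 (adjusted p = 0.0459). Of 21 genes listed around Igf2, 2 had a row: Ctsd, a lysosomal protease, 263 kb away, and Cd81, a tetraspanin, 386 kb away. Ctsd had 13552 normalised counts in eGFP 1, 22911 in eGFP 2, 12338 in mVEGF-C 1 and 9836 in mVEGF-C 2, and was highest in the library in which Igf2 was lowest. H19, the imprinted noncoding RNA that shares enhancers with Igf2, was not analysed here. Of 14 genes listed around Igfbp5, 6 had a row. Xrcc5, a DNA repair gene 463 kb away, had 543, 182, 24.6 and 41.8 in the same order (limma, log2 difference -3.25, adjusted p = 0.203). Igfbp2, the neighbouring binding protein gene, was not analysed here.

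Of 36 imprinted genes listed, 11 had a row, and 9 of the 11 had fold changes above 0, against 49.5% of all genes, with 1 at an unadjusted p under 0.05 in limma, Igf2r. The most abundant were Gnas, the stimulatory G protein gene, at 24425 on average, Dcn at 15878, Igf2 at 12727 and Igf2r at 5457. Igf2 and Igf2r, whose products bind each other, differed by 0.12 and 2.50 on the log2 scale, and this gap between the 2 genes was not tested.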
